A study of Mus musculus with 6 samples.

Results

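Small leucine-rich proteoglycans are secreted matrix proteins built around a stretch of leucine-rich repeats, which lets them bind collagen fibrils. Messenger RNA of 9 genes of the family (Dcn, Lum, Bgn, Fmod, Ogn, Omd, Prelp, Aspn and Podn) was described in sorted mouse lung fibroblasts. The genes were chosen by name as family members of connective tissue, with earlier results of these data known. All 9 were found among the 43430 genes of the count table. All 9 passed the filter on low counts that kept 13005 genes for testing, so none was lost to low values.

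The cells came from both lungs of male C57BL/6J mice of 9 to 11 weeks, wild-type as far as the labels go, with no transgene named. Room air mice (9 animals, the naive group) and mice that breathed 10% CO2 for 10 days (9 animals, hypercapnia, in which blood CO2 is raised) were compared, and the series describes the CO2 exposure as normoxic. Cells were sorted by flow cytometry, and the cells of 3 mice went into each library, giving 3 libraries per group (M1 to M3 for room air, M4 to M6 for hypercapnia). The sample labels name the sorted cells PDGFRa+ or PDGFRA+ for room air and PDGFR+ for hypercapnia, while the design text names the alpha receptor for both. Each library is thus a pool of animals, and differences between single mice were not measured.

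These proteoglycans are ordered in classes by sequence. Decorin (Dcn), biglycan (Bgn) and asporin (Aspn) form class I, and decorin and biglycan carry chondroitin or dermatan sulfate chains. Fibromodulin (Fmod), lumican (Lum), prolargin (Prelp) and osteomodulin (Omd) belong to class II, where keratan sulfate chains and sulfated tyrosines are common. Osteoglycin (Ogn, also called mimecan) stands in class III, and podocan (Podn) is outside these classes. In connective tissue, lung included, they set the width and spacing of collagen fibrils, and several bind growth factors such as TGF-beta.

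Total counts per library ran from 8999780 to 10198336, and 3 counts corresponded to between 0.281 and 0.354 CPM (a gene's counts as a share of the library, scaled by TMM composition factors). Pdgfra stood between 2530.3 and 3707 CPM and Col1a1, a chain of type I collagen, between 4526 and 5466 CPM. The 8 leukocyte markers summed to between 11.9 and 61.5 CPM, most of it Lyz2 (10.1 to 58.7 CPM), with Adgre1, Marco and Cd3e at 0 in every library. The 8 airway and alveolar epithelial markers summed to between 345 and 644 CPM and the 6 cartilage markers to between 1.59 and 6.04 CPM. Endothelial transcripts were present: the 12 markers summed to between 594 and 2072 CPM in room air, lowest in M3, and between 2033 and 3246 CPM in hypercapnia. In bulk RNA, fewer cells of a type and less RNA per cell cannot be told apart.

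Hypercapnia libraries held more Aspn and Podn transcript and less Prelp transcript than room air libraries. Aspn was 1.95 times and Podn 1.83 times the room air mean, and Prelp 0.695 times. By edgeR's quasi-likelihood test, with p-values adjusted over all 13005 genes by the Benjamini-Hochberg method and called under 0.05, 2 of the 9 genes rose, 1 fell and 6 did not pass. Of all genes tested 1.22% were called, 0.523% higher and 0.700% lower. The median log2 fold change of the 9 genes was 0.27, against 0.01 over all tested genes, and 7 were positive. For 5 of the 9 no library of one group lay within the other group, 3 higher and 2 lower, where 18.0% of all genes had no overlap (9.28% higher and 8.74% lower).

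**Figure D1:**
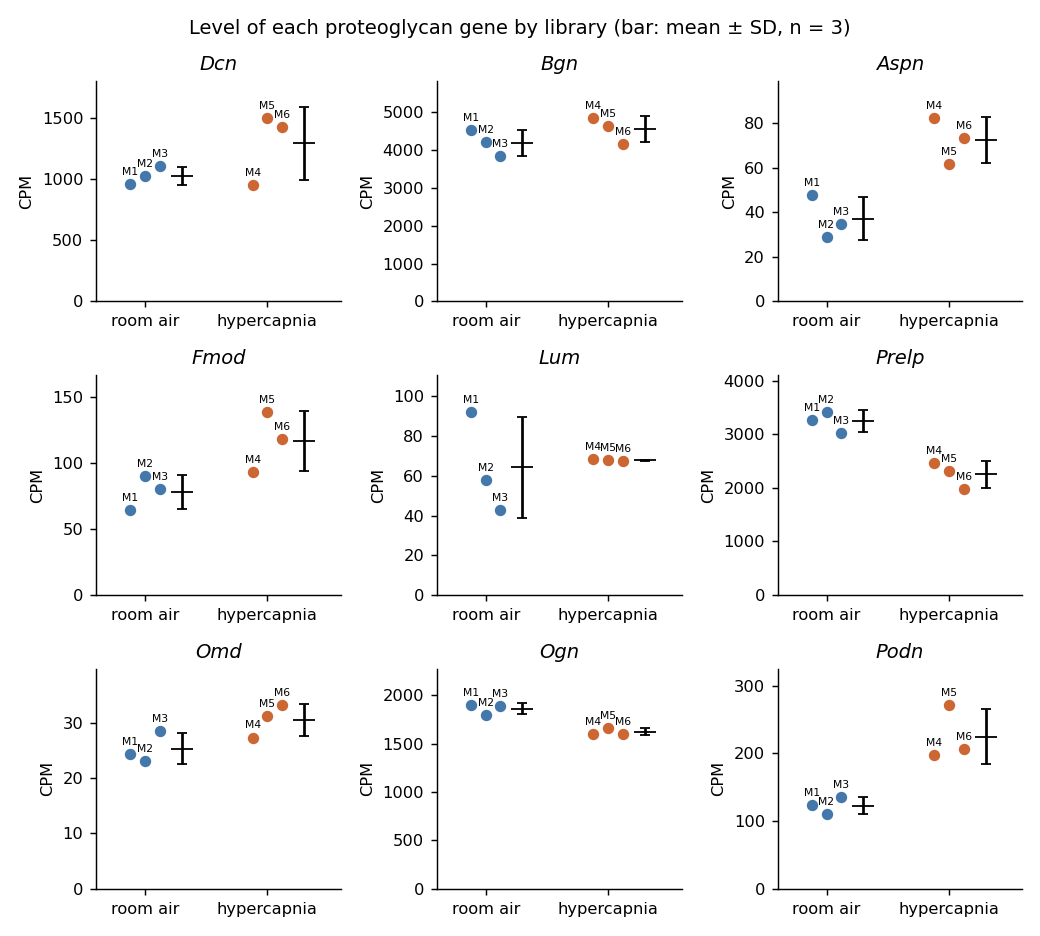
Each panel plots the CPM of a gene (vertical axis from 0) in the 6 libraries, room air in blue and hypercapnia in orange, with a bar for the mean ± SD over 3 libraries. Aspn, Podn and Fmod lie higher and Prelp and Ogn lower in every hypercapnia library than in any room air library, while Dcn in M4 (946 CPM) lies below all room air libraries.

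Asporin, a class I protein named for its run of aspartate residues, binds collagen and TGF-beta. Aspn counted 47.8 (M1), 28.8 (M2) and 34.8 CPM (M3) in room air against 82.5 (M4), 61.7 (M5) and 73.5 CPM (M6) in hypercapnia. The groups did not overlap, with M1 the highest room air library and M5 the lowest of hypercapnia. The means were 37.1 ± 9.7 and 72.6 ± 10.4 CPM (SD, n = 3), and Aspn differed by 0.97 ± 0.19 (SE) on the log2 scale (edgeR adjusted p = 0.041). Aspn (ENSMUSG00000021388) lies on chromosome 13 from 49544443 to 49567565 on the plus strand (GRCm38), and 0.297% of its exonic bases are shared with Cenpp on the other strand. The call held without M1 (adjusted p = 0.0156) and was lost without M2 (0.201), M3 (0.0691), M4 (0.0872), M5 (0.0963) or M6 (0.14), with log2 fold changes of 0.81 to 1.19.

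Podocan, a collagen-binding protein known to slow the growth of smooth muscle cells, was the gene of the 9 with the smallest p. Podn counted 124, 109.9 and 135 CPM in room air and 197, 271 and 207 CPM in hypercapnia. Every hypercapnia library was above every room air library, and M5 stood apart from M4 and M6. The means were 123 ± 12.6 and 225 ± 40.3 CPM (SD, n = 3), a log2 fold change of 0.87 ± 0.14 (edgeR adjusted p = 0.0199). Podn (ENSMUSG00000028600) lies on chromosome 4 from 108014791 to 108096445 on the minus strand. The call was lost without M1 (adjusted p = 0.055), M2 (0.157), M5 (0.0963) or M6 (0.0627), with log2 fold changes of 0.71 to 0.96 over the libraries left out.

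Prolargin differs from the rest of its class by a basic tail that binds heparan sulfate, and it is thought to tie basement membranes to the collagen beneath. Prelp counted 3273, 3423 and 3017 CPM in room air and 2462, 2316 and 1974 CPM in hypercapnia, again without overlap. The means were 3238 ± 205 and 2251 ± 250.3 CPM (SD, n = 3), a log2 fold change of -0.52 ± 0.11 (edgeR adjusted p = 0.0458). Prelp (ENSMUSG00000041577) lies on chromosome 1 from 133910304 to 133921414 on the minus strand. It shares 9.68% of its exonic bases with Gm15851, a predicted gene on the other strand that had between 26 and 118 counts per library, against 21062 to 32578 for Prelp. The strand setting of the counting is not given in the sources used here, so reads of the shared bases cannot be assigned to either. The call was lost without M1 (adjusted p = 0.0924), M2 (0.259), M5 (0.186) or M6 (0.143), with log2 fold changes of -0.59 to -0.44.

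**Figure D2:**
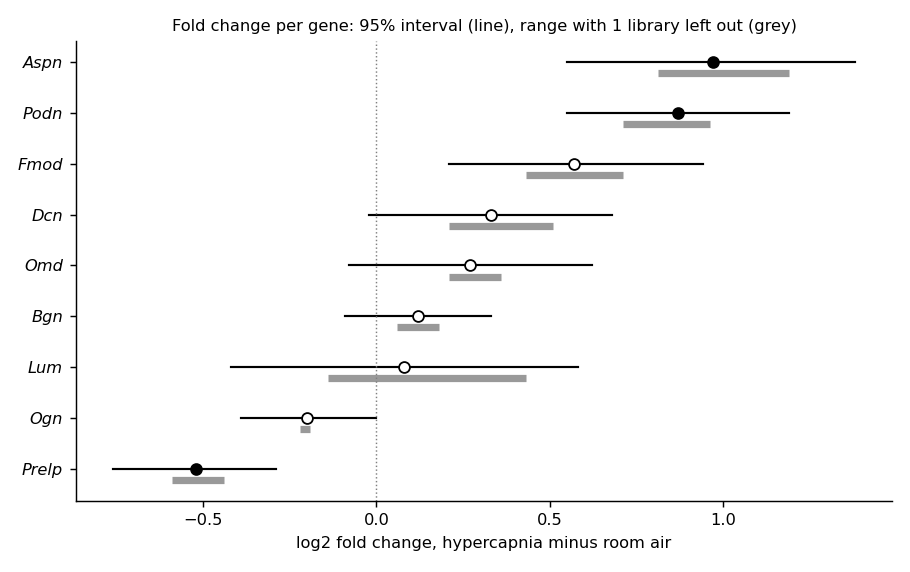
Points give the edgeR log2 fold change per gene (horizontal axis, hypercapnia minus room air), filled where the adjusted p was under 0.05, black lines its 95% interval and grey bars the range when each library was left out in turn. Aspn (0.97), Podn (0.87) and Prelp (-0.52) are filled, and the grey bar of Lum crosses 0.

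The share of all genes called moved with the method, and the members' calls are read beside it. The same 3 genes were called with RLE factors (1.18% of all genes), without composition factors (1.32%), by limma-voom (1.51%), with a stricter filter of 5 CPM in 3 libraries (1.53%) and with robust dispersion (1.96%). In the fit with an endothelial covariate, given further on, 1.36% of all genes were called. Without M1 0.818% of all genes and Aspn were called, and without M3 (0.889%) or M4 (1.10%) Podn and Prelp. Without M2 (0.179%), M5 (0.203%) or M6 (0.317%) none of the 9 was called, and unadjusted p-values under 0.05 numbered 1262, 1110 and 1449 genes by edgeR. Each of these fits rests on 5 libraries.

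The DNA just before the start of these 3 genes is shown because they are the family members that passed the test, 2 in one direction and 1 in the other. RefSeq (GRCm38.p6) gave a promoter window for 7 of the 9 genes, all but Dcn and Lum. Each line is the stretch from 250 to 21 bases before the start, 5′ to 3′ on the gene's own strand. Capitals mark matches on either strand to the TATA box (TATAAA), the E-box (CACGTG), the D-box (TTATGNAA), the cAMP response element (TGACGTCA), the GC box (GGGCGG), the CCAAT box (CCAAT) and the SMAD element (CAGAC). Podn has 2 windows, and the one without an exon of another transcript is shown. Both RefSeq starts of Podn lie inside the annotated span given above, not at its outer end (108096445).
Aspn, chr13:49544193-49544422, plus strand: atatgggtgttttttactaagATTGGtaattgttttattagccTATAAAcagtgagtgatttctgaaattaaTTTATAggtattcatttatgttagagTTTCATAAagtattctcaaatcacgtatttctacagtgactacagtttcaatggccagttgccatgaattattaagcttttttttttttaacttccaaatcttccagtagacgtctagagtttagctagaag
Podn, chr4:108031007-108031236, minus strand: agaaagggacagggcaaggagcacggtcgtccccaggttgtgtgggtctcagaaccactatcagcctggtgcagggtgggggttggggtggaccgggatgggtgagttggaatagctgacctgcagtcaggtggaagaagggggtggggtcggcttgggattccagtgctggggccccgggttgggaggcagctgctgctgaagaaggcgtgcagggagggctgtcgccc
Prelp, chr1:133921422-133921651, minus strand: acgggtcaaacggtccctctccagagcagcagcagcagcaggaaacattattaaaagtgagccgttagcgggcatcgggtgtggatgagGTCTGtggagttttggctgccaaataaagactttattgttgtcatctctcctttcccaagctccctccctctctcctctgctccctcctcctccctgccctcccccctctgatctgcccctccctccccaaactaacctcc
The Aspn window held 29.6% G and C, below the lower quartile of all 32851 windows (44.8%, median 51.7%). It had 2 TATA box matches, a motif present in 11.8% of all windows, at 207 to 202 and 178 to 173 bases before the start. The match at 178 to 173 was on the other strand, and the rest of the window, up to 21 bases before the start, held no TATA box match. There were also 1 D-box match (2.92% of all windows) and 1 CCAAT match (32.2%). The shares over all windows are not matched for G and C content. A D-box is bound by the circadian output factors of the PAR bZIP family. The pattern searched (TTATGNAA) leaves a base open, so a match to it need not be a site that these factors bind. All matches given here, those to the TATA box included, describe the letters only, and neither binding nor promoter use was tested. None of the motifs was found in the Podn window shown, which held 64.3% G and C. Its other window, with 77.8% G and C, had 2 GC box matches (29.8% of all windows). Prelp had a single SMAD match (39.7% of all windows) at 55.7% G and C. The E-box (5.35%) and the cAMP response element (1.28%) had no match in the windows of the 7 genes.

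Fmod and Lum are the class II members that bind an overlapping region of collagen fibrils. Fmod counted 64.5, 90.1 and 80.6 CPM in room air and 93.4, 139 and 118 CPM in hypercapnia. Its groups did not overlap, although M2 and M4 were close. The difference of 0.57 ± 0.17 on the log2 scale did not pass (edgeR adjusted p = 0.156). DESeq2 (adjusted p = 0.0414) and edgeR without a filter on low counts (0.00188) called it, where 3.35% and 3.62% of all genes tested were called. Lum counted 92.4, 57.7 and 42.8 CPM in room air and 68.3, 67.8 and 67.6 CPM in hypercapnia. The room air libraries spanned the hypercapnia values, with a coefficient of variation of 39.6% against 0.508%. Lum had 599, 689 and 721 counts in M4 to M6, and counting noise at that depth is wider than 0.508%. The narrow hypercapnia spread is thus not read as a property of Lum. Its log2 fold change was 0.08 ± 0.23 (adjusted p = 0.938, 95% interval -0.42 to 0.58), and it read 0.43 without M1 and -0.14 without M3. Among the room air libraries M1 was highest and M3 lowest for Lum, and the same held for the summed endothelial markers (2072 CPM in M1, 1826 CPM in M2 and 594 CPM in M3). In hypercapnia the endothelial sum ran from 2033 to 3246 CPM while Lum differed by less than 1 CPM. In a fit with endothelial marker level as a covariate, the log2 fold change of Lum was -0.32 ± 0.19 (adjusted p = 0.441).

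Decorin, the best known of the family as a regulator of fibril growth and a binder of TGF-beta, had uneven hypercapnia libraries. Dcn counted 954, 1022 and 1101 CPM in room air and 946, 1499 and 1424 CPM in hypercapnia. M5 and M6 were above all room air libraries and M4 was below them. The log2 fold change was 0.33 ± 0.16 (edgeR adjusted p = 0.452, 95% interval -0.02 to 0.68), and without M4 it was 0.51 ± 0.11 (0.0598). Bgn, the closest relative of Dcn, counted 4521, 4224 and 3836 CPM in room air and 4855, 4642 and 4169 CPM in hypercapnia. These overlapped, with a log2 fold change of 0.12 ± 0.10 (adjusted p = 0.715, 95% interval -0.09 to 0.33). An increase of Bgn of the size seen in Aspn or Podn lies outside that interval. Bgn fell from M1 to M3 and from M4 to M6, as did the summed endothelial markers (2072, 1826 and 594 CPM, then 3246, 2588 and 2033 CPM). In the fit with endothelial marker level as a covariate, Bgn had a log2 fold change of -0.02 ± 0.10 (edgeR adjusted p = 0.954). Whether endothelial RNA added to the levels of Bgn or Lum was not tested.

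Osteoglycin and osteomodulin, neighbours on chromosome 13 first known from bone, were far apart in level. Ogn counted 1895, 1794 and 1887 CPM in room air and 1604, 1663 and 1596 CPM in hypercapnia. All hypercapnia libraries were below all room air libraries, with coefficients of variation of 3.01% and 2.27%. The log2 fold change was -0.20 ± 0.09 and did not pass (edgeR adjusted p = 0.413). Omd counted 24.3, 23.1 and 28.4 CPM in room air and 27.3, 31.2 and 33.1 CPM in hypercapnia, overlapping at M3 and M4, with 0.27 ± 0.16 (adjusted p = 0.552).

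Levels between genes were compared per length, as RPKM (CPM per kilobase of merged exons). In room air the order was Prelp at 896 ± 56.8 RPKM (SD, n = 3), Ogn at 724 ± 21.8, Bgn at 688 ± 56.3 and Dcn at 176 ± 12.7. Podn (28.8 ± 2.95), Lum (26.3 ± 10.4), Fmod (23.7 ± 3.9), Aspn (15.8 ± 4.12) and Omd (11.2 ± 1.24) followed. Libraries of Ogn and Bgn overlapped, as did each neighbouring pair from Podn down to Omd, so those places are not resolved. In hypercapnia Bgn came first at 747 ± 57.5 RPKM, ahead of Ogn (632 ± 14.3) and Prelp (623 ± 69.2), which overlapped. Dcn stood at 221 ± 51.3, Podn at 52.7 ± 9.43, Fmod at 35.3 ± 6.85, Aspn at 30.8 ± 4.43, Lum at 27.7 ± 0.141 and Omd at 13.6 ± 1.3 RPKM. In the lower part of that order Fmod overlapped with Aspn and Aspn with Lum, while Podn stood above Fmod and Lum above Omd without overlap. The place of Bgn depended on the length used: its merged exons span 6099 bases and its longest transcript 2666, and with the latter Bgn led in room air too, at 1573 ± 129 RPKM.

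The 9 genes together made up about 1% of each library. Their counts summed to 1.04, 1.05 and 1.03% of the total in room air and 1.01, 1.11 and 1.01% in hypercapnia. The means were 1.04 ± 0.0103% and 1.04 ± 0.0612% (SD, n = 3, two-sided exact permutation p = 1, where 3 against 3 libraries cannot go below 0.1). The mix of the 9 genes was described per length, by the share of each gene in the summed RPKM, which is a different total from the sum of counts. By CPM, not divided by length, Bgn was above Prelp in room air (means of 4194 and 3238) as well as in hypercapnia (4555 and 2251). Prelp made up 34, 36.2 and 33.5% in room air and 28.2, 25.8 and 24.2% in hypercapnia, without overlap (exact permutation p = 0.1, the smallest possible). Bgn made up 27.8, 26.5 and 25.3% in room air and 33, 30.7 and 30.3% in hypercapnia (exact p = 0.1). By the longest transcript as length, an alternative chosen after the data were seen, Bgn had the largest share in both groups, 44.6 ± 1.66% and 50.1 ± 1.85%, and Prelp had 25.4 ± 1.07% and 18.2 ± 1.24%. Aspn, Podn and Fmod had small shares throughout, at most 2.56% for Podn in M5. Over the 9 genes by merged exons, 5 shares (Prelp, Bgn, Aspn, Podn and Fmod) reached an exact p of 0.1. Adjusted over these 9 tests by Benjamini-Hochberg none was under 0.05, which this design does not allow.

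**Figure D3:**
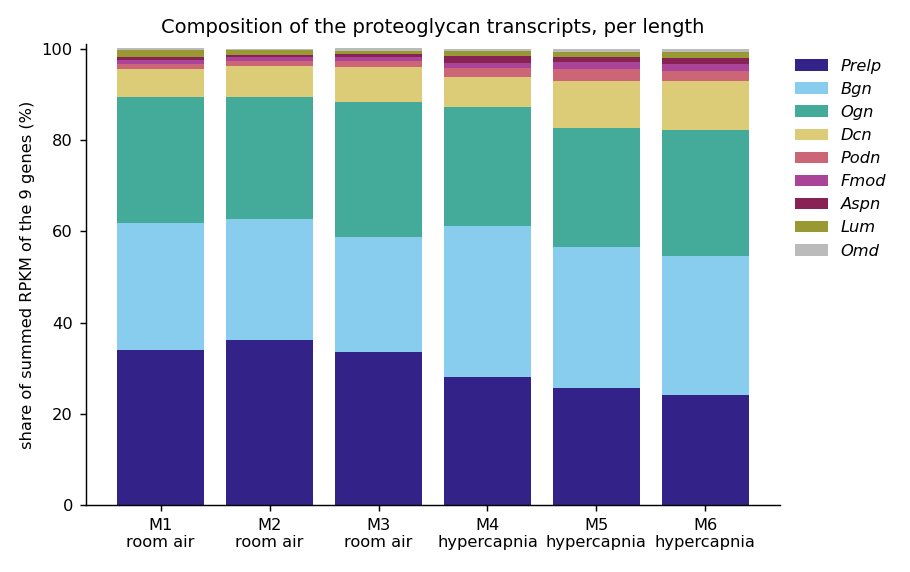
Stacked bars give each gene's share of the summed RPKM of the 9 genes (vertical axis, percent, by merged exon length) in each library. The Prelp segment is between 33.5 and 36.2% in room air and between 24.2 and 28.2% in hypercapnia.

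Most of these genes sit in clusters, and log2 fold changes of both signs stood within those on chromosomes 13 and 1. On chromosome 13 (GRCm38) Ecm2, Aspn, Omd and Ogn lie in that order on the plus strand within 119692 bases. The whole cluster lies within Cenpp, a centromere protein gene on the minus strand (49464023 to 49652785). Their log2 fold changes were -0.25 ± 0.12, 0.97 ± 0.19, 0.27 ± 0.16 and -0.20 ± 0.09, and Aspn alone passed. Ecm2 encodes a matrix protein with leucine-rich repeats and counted 179, 159 and 206 CPM in room air and 144, 157 and 156 CPM in hypercapnia. On chromosome 1 Prelp and Fmod, on opposite strands and 115839 bases apart, had log2 fold changes of -0.52 and 0.57. On chromosome 10 Dcn and Lum lie 46984 bases apart, next to Kera and Epyc, which had at most 4 and 14 counts in any library and were not tested. Bgn lies on chromosome X from 73483602 to 73495933.

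**Figure D4:**
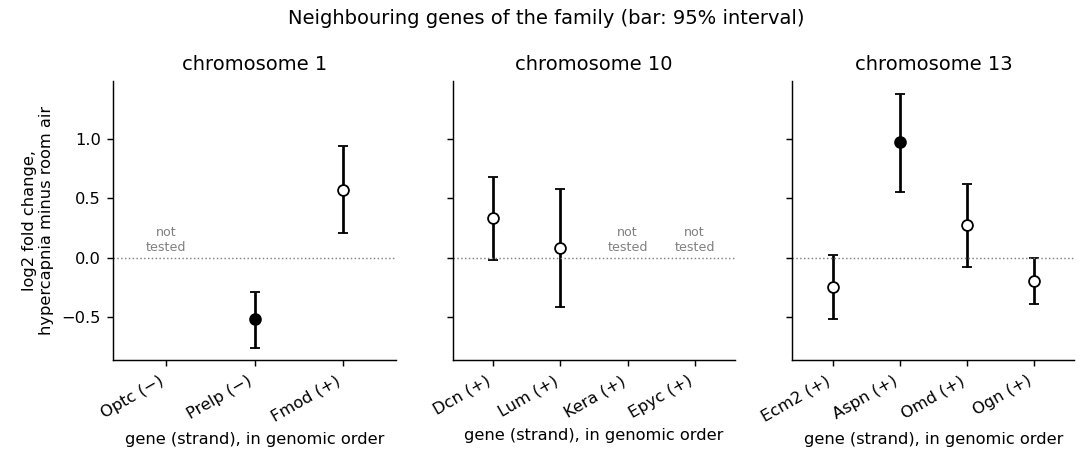
Points give the log2 fold change (vertical axis, hypercapnia minus room air) with its 95% interval for family genes in genomic order on chromosomes 1, 10 and 13, filled where the adjusted p was under 0.05. Prelp and Fmod lie on opposite sides of 0, as do Aspn and, in the same cluster, Ecm2 and Ogn.

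Ratios of 2 genes within a library need no scaling between libraries. The log2 ratio of Aspn to Ogn counts was -5.31, -5.96 and -5.76 in room air and -4.28, -4.75 and -4.44 in hypercapnia, a difference of 1.19 without overlap. That of Fmod to Prelp was -5.66, -5.25 and -5.23 in room air and -4.72, -4.06 and -4.07 in hypercapnia, a difference of 1.1. Both had an exact two-sided permutation p of 0.1, the smallest this design allows. Dcn to Bgn, the class I pair, overlapped between the groups (difference 0.18, exact permutation p = 0.6). These are 3 of 6 pairs computed, chosen after the values were seen, and none of the 6 can pass 0.05 after adjustment.

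Other genes of the family were mostly scarce in these cells. Of 9 further members, Kera, Epyc, Optc, Chad, Nyx and Podnl1 were too low to test. Ecm2, Tsku (0.23 ± 0.22) and Chadl (-0.60 ± 0.75) were tested and did not pass. Tsku encodes tsukushi, an extracellular modulator of BMP and Wnt signals, and stood at 17 ± 2.49 and 20.1 ± 4.86 CPM (SD, n = 3).

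Enzymes that build the sugar chains were measured next. Of 22 tested genes of chondroitin and dermatan sulfate synthesis, 0 passed by edgeR, 17 had a negative log2 fold change and the median was -0.16. Dse, the epimerase that turns chondroitin into dermatan sulfate, stood at 127 ± 8.42 and 92.7 ± 7.78 CPM (-0.45 ± 0.11, adjusted p = 0.0984). Chst7, a chondroitin sulfotransferase, stood at 27.5 ± 5.11 and 16.3 ± 4.07 CPM (-0.76 ± 0.22, adjusted p = 0.165). Neither gene's groups overlapped, which held for 18.0% of all genes tested. Of 6 tested genes of keratan sulfate synthesis 0 passed (median -0.12), with Chst2 at -0.26 ± 0.11 and Fut8 at 0.27 ± 0.13. Of 8 tested genes of sulfate supply and tyrosine sulfation 0 passed (median 0.08), among them Tpst2, a tyrosine sulfotransferase (0.54 ± 0.17, adjusted p = 0.182), and the sulfate transporter gene Slc26a2 (0.33 ± 0.14).

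Among 9 tested genes for proteases and their helpers that trim or cut these proteins and collagen, 2 fell, 7 did not pass and the median was -0.28. Of all genes tested 0.700% were called lower. Mmp14, a membrane-bound collagenase known to cleave several of these proteoglycans, had a log2 fold change of -0.94 ± 0.12, lost without M2 (adjusted p = 0.0575). Adamts4, an aggrecanase, had -2.18 ± 0.43 at 9.91 and 2.2 CPM, lost without M1 (0.0835), M2 (0.231), M5 (0.188) or M6 (0.157) and by limma-voom (0.0532). Bmp1, the protease that removes the propeptide of biglycan and osteoglycin, counted 110.4, 121 and 118 CPM in room air and 141, 149 and 152 CPM in hypercapnia. Its libraries did not overlap, as for 18.0% of all genes tested, and it did not pass (0.34 ± 0.10, edgeR adjusted p = 0.18). Pcolce and Pcolce2, known as enhancers of procollagen processing by that protease, had -0.31 ± 0.11 and -0.28 ± 0.09 and did not pass either.

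Of 10 tested collagen genes whose fibrils or filaments these proteins bind, 0 passed by edgeR and the median was -0.06. Col6a3, a chain of the beaded-filament collagen VI, stood at 2709 ± 193 and 2084 ± 251 CPM (-0.38 ± 0.11, adjusted p = 0.156). Col14a1, a fibril-associated collagen, counted 394, 457 and 399 CPM in room air and 472, 762 and 571 CPM in hypercapnia (0.53 ± 0.16, adjusted p = 0.182). Of 17 receptors and growth factors known to bind these proteins 1 rose, 16 did not pass and the median was -0.07, where 0.523% of all genes were called higher. The gene that rose was Ccn4, a matricellular protein bound by decorin and biglycan (1.46 ± 0.21), lost without M5 (adjusted p = 0.0558) or M6 (0.0647). Cd14, a co-receptor of the Toll-like receptors that sense soluble biglycan, stood at 8.39 ± 1.77 and 15.8 ± 1.33 CPM (0.91 ± 0.24, adjusted p = 0.11).

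**Figure D5:**
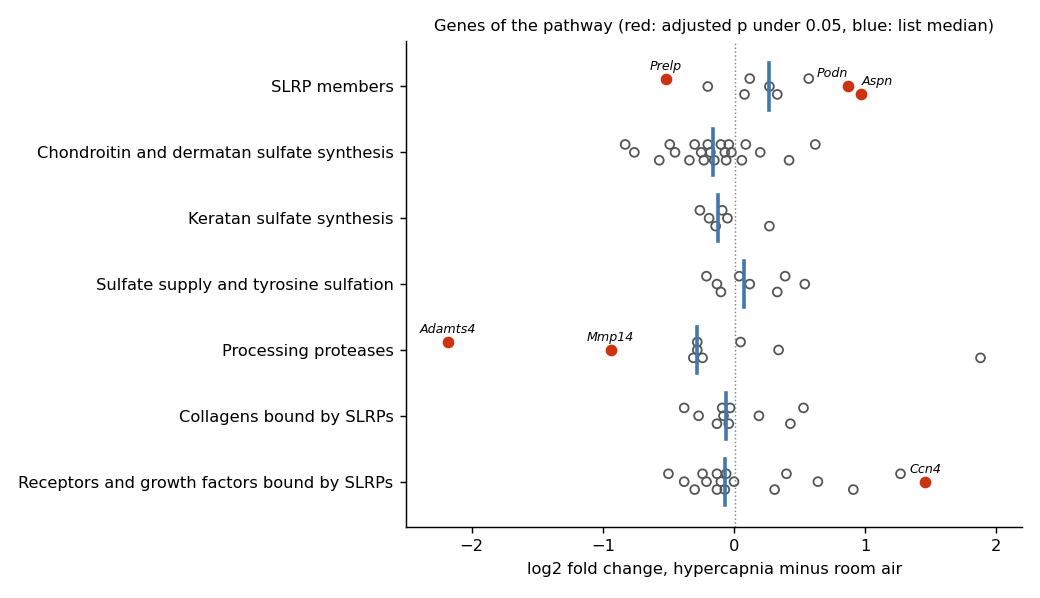
Each circle is the log2 fold change of a gene (horizontal axis, hypercapnia minus room air) in the list named at left, red where the adjusted p was under 0.05, with the list median in blue and the median of all tested genes (0.01) dotted. Called genes are Aspn, Podn and Prelp among the proteoglycans, Mmp14 and Adamts4 among the proteases and Ccn4 among binding partners.

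Fibroblast subtype markers differed between the same libraries. Of 13 alveolar fibroblast markers 7 fell, 0 rose and all had a negative log2 fold change (median -0.57). Of all genes tested 0.700% were called lower and 0.523% higher. The summed level of the alveolar markers was 28420.2 to 29881 CPM in room air and 21402 to 24028 CPM in hypercapnia. Of 13 adventitial fibroblast markers, from the cuffs of airways and vessels, Il33 rose, Fbn1 fell and 12 were positive (median 0.53). The adventitial sum ran from 4519 to 5022 CPM in room air and from 4479 to 5607 CPM in hypercapnia. With the mean adventitial marker level as a covariate, the log2 fold changes were 1.56 ± 0.33 for Aspn, 0.77 ± 0.32 for Podn, -0.57 ± 0.22 for Prelp, 0.01 ± 0.28 for Fmod and -0.08 ± 0.32 for Dcn. In that fit edgeR called 0 of 13005 genes, with 562 at an unadjusted p under 0.05. The marker level itself did not overlap between the groups (7.16 to 7.51 and 7.61 to 7.94 log2 CPM), so it and the exposure cannot be told apart. Endothelial markers were higher by a median of 0.88 on the log2 scale, all 12 positive and 0 called. In the fit with endothelial marker level as a covariate, Podn (0.98 ± 0.17, adjusted p = 0.0156) and Prelp (-0.65 ± 0.12, 0.0175) were called and Aspn was not (0.84 ± 0.23, 0.0895). That marker level was 7.13, 6.93 and 5.41 log2 CPM in room air and 7.78, 7.47 and 7.13 in hypercapnia. The groups met only at M1 and M6, so the endothelial level and the exposure can hardly be told apart either.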

How the data were processed

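The data are raw read counts per gene, deposited by the authors as whole numbers for 43430 Ensembl gene IDs in 6 columns. The submitters' processing notes name HTSeq, TopHat2 2.1.0, FastQC and bcl2fastq 2.17.1.14 and build mm10. Annotation release, strand setting and read filters are not given in the sources used. Column names carry the group, and their numbers are not those of the sample titles, so each column was assigned to a group only. GENCODE M21 (GRCm38) gave names, positions and lengths for 42546 of the IDs. Libraries are pools of 3 mice, and no 2 agreed within sampling noise (chi-square per degree of freedom at least 12.6).

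edgeR 4.0.16 in R 4.3.3 was run on all 6 libraries with group as the only term, TMM factors (0.943 to 1.05), the default filter by group (minimum count 10) and 4 residual degrees of freedom. The two-sided quasi-likelihood test was adjusted by Benjamini-Hochberg over 13005 genes. It was also run on simulated counts with known changes, a check of the code and not of these data. The SE is the log2 fold change divided by the square root of F. Marker levels are the mean of log2(CPM + 1). Alternatives were RLE factors, no factors, DESeq2 1.42.0, limma-voom (limma 3.58.1), other filters, robust dispersion, marker levels as covariates and each library left out.

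The members and lists were chosen with earlier results of these data known. Named genes are the 9 members, tested relatives, and in each list the called genes or the 2 with the smallest p. Others, including Bmp1, Pcolce and Pcolce2, were chosen after their values were seen. For the member with the largest fold change and the most abundant, the rule adds the 3 genes of at least 50 CPM nearest in profile.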

Additional observations from a re-analysis of the deposited data

How the results depend on the processing

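Over 15 alternatives the 9 genes gave 135 values, of which 112 kept their direction and side of the threshold, 17 lost the call, 2 gained it and 4 turned sign. Only called genes can lose a call: Aspn lost it in 7 of the 15 alternatives, Podn in 5 and Prelp in 5. Aspn, Podn and Prelp kept their direction in all 15. With 1 library left out, the number of members called higher ran from 0 to 1 and lower from 0 to 1, and the number of genes called from 24 (without M2) to 148 (without M4), with fewer samples in each such fit. Genes called numbered 435 by DESeq2, 756 with no filter on low counts and 255 with robust dispersion, against 159. With the endothelial covariate 1 member was called higher. With the adventitial covariate 0 members were called higher, 0 lower and 0 genes in all. The adventitial marker level did not overlap between the groups, so in that fit it and the exposure cannot be told apart. The SE widened from 0.19 to 0.33 for Aspn, from 0.14 to 0.32 for Podn and from 0.11 to 0.22 for Prelp. The cause of the lost calls was not tested. Lum turned to -0.32 with the endothelial covariate and -0.14 without M3 (0.43 without M1), Bgn to -0.02 with the endothelial covariate and Dcn to -0.08 with the adventitial covariate. Col1a1, at -0.04, turned to 0.03 without composition factors, 0.01 without M2 and 0.02 without M4 (-0.12 without M5). The summed share differed by 0.00513 percentage points, by -0.0503 without Bgn, by -0.0415 with TMM-scaled CPM, by -0.0302 without M5, and by up to 0.0238 without M4. By the longest transcript 6 of 9 genes kept their place in room air and 9 in hypercapnia. No paired analysis was possible because the columns carry no shared replicate numbers. Changes in genes of few counts, such as Kera and Optc, were not detectable at this depth.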

Other observations

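Genes with a profile over the 6 libraries most like a member were looked up among 4109 genes of at least 50 CPM, by the root mean square difference of centred log2 CPM. Nearest to Aspn, the member with the largest fold change, were Hlf (0.177), a circadian output transcription factor, Ptpru (0.237), a receptor tyrosine phosphatase, and Sulf1 (0.24), an extracellular enzyme that removes sulfate from heparan sulfate. Sulf1 counted 105, 97.9 and 92.6 CPM in room air and 187, 178 and 157 CPM in hypercapnia, with a log2 fold change of 0.82 ± 0.11 and an edgeR adjusted p of 0.00858. That call was lost without M2 (adjusted p = 0.078) or M5 (0.0726). Hlf had 0.97 ± 0.15 (adjusted p = 0.016, lost without M2 at 0.137, M5 at 0.0886 and M6 at 0.0647), and Ptpru did not pass (0.69 ± 0.16, 0.0761). Nearest to Bgn, the most abundant member by CPM, were Ptdss1 (0.0199), Scarb2 (0.0263) and Serinc3 (0.0274), none of which passed. The likeness rests on 6 libraries and is a description. Genes picked by likeness to Aspn have log2 fold changes near that of Aspn by that choice, so their fold changes are no separate result. A link between Hlf and the D-box match before Aspn was not tested.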
